A study of Homo sapiens with 4 samples.

Results

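The enzymes that add methyl groups to histone lysines and those that remove them were examined for peaks of FOXK2, a forkhead transcription factor, in OVCAR5 cells, an established ovarian cancer cell line. The group held 39 genes of the 20037 protein-coding genes used as background: 24 genes for methyltransferases and the core subunits of polycomb repressive complex 2 (PRC2), called writers below, and 15 genes for demethylases, called erasers. The members were chosen by name, with earlier results of these data known. A peak belonged to a member when the deposited peak list gave that gene as the one with the nearest transcription start site (TSS). By this rule 35 of the 12471 FOXK2 peaks of replicate 1 and 74 of the 27281 peaks of replicate 2 belonged to the group.

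The study performed ChIP-seq, which sequences the DNA pulled down with an antibody, on crosslinked and sonicated chromatin with an antibody against FOXK2. The 2 biological replicates came from a single condition: OVCAR5 cells described as high-grade serous ovarian cancer cells from ascites, grown in serum-containing RPMI medium, with no genetic change and no treatment named. The 2 matching input libraries and the reads were not analysed here. One cell line under 1 condition allows no comparison between conditions, and peak lists hold no expression, so the labelled cell type could not be checked against marker genes.

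Methyl groups on histone H3 mark the state of chromatin: those on lysine 4 (H3K4), lysine 36 and lysine 79 lie at active promoters, enhancers and gene bodies, and those on lysine 9 and lysine 27 lie in silenced chromatin. Most of the methyltransferases act through a SET domain, with DOT1L as the exception among those named here, while EED and SUZ12 are PRC2 subunits without one. Erasers belong to the amine oxidase family of KDM1A and KDM1B or to the larger family of Jumonji C (JmjC) dioxygenases. FOXK2 binds DNA through a forkhead domain that recognises the heptamer TGTTTAC, read as GTAAACA on the opposite strand.

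Of the 25 sites at which a member had overlapping peaks in both replicates, 6 held this heptamer within 100 bases of the peak centre. This share, 24% (Wilson interval 11.5% to 43.4%), was not above that of all overlapping peaks. Of all overlapping peaks, 34.3% in replicate 1 and 34.9% in replicate 2 held it. Both values lay inside the interval, and no test was made. The 6 sites are shown because they pair a reproduced peak named for an enzyme gene with the forkhead sequence. Some of them lie far from that gene or within another. All 6 are printed with 11 bases to each side, on the plus strand of hg38, with the heptamer or its reverse complement in capitals.
EZH1, chr17:42744985-42745013: cggcccaggctTGTTTACtcactcaccct
KDM3B, chr5:138355071-138355099: cacacacggtaGTAAACAcaactgtcttc
KDM3A, chr2:86393809-86393837: ggccttatcttGTAAACAccatttccatt
KDM4C, chr9:7216722-7216750: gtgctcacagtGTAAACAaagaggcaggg
KDM2B, chr12:121580279-121580307: atccccggaacGTAAACAttgttgccgat
JMJD1C, chr10:63554203-63554231: ggctaaataaaGTAAACAactcctctgag
The heptamer of EZH1 lay 15 bases from the peak centre in replicate 1 and 9 bases from it in replicate 2, and that of KDM3A lay 17 and 15 bases away. The heptamer of KDM3B was 94 bases from the centre in replicate 1 and 25 bases from it in replicate 2, because the centres of its peaks differed by 69 bases.

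Longer stretches show the surroundings of some of these sites and of sites without the heptamer. The stretches covered by the peaks of both replicates are printed below, on the plus strand of hg38, for the 6 members with the best-ranked overlapping peaks among sites outside untranslated regions. Capitals mark the forkhead heptamer (TGTTTAC) and the AP-1 site (TGACTCA), or, where neither occurred, the SP/KLF site (GGGCGG), each on either strand, and a sequence without capitals held none of these.
KDM3B, first intron, chr5:138355074-138355238: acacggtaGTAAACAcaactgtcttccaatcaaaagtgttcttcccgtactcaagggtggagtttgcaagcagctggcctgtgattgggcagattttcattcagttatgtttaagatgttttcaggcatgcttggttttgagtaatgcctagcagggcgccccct
KMT2B, promoter, chr19:35717777-35717955: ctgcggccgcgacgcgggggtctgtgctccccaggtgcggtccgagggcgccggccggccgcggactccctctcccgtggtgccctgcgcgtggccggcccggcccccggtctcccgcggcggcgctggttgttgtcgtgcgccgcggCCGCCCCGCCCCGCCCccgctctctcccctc
KDM3A, upstream, chr2:86393735-86393945: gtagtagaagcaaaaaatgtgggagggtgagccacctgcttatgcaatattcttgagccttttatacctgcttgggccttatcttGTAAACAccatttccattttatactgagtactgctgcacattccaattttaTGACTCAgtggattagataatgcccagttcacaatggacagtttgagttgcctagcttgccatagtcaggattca
KDM4C, intron, chr9:6846040-6846250: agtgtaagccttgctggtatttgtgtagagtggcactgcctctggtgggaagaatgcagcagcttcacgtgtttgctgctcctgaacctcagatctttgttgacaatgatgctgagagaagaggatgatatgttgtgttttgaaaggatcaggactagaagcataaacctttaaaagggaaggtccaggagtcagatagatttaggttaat
EED, upstream, chr11:86183161-86183365: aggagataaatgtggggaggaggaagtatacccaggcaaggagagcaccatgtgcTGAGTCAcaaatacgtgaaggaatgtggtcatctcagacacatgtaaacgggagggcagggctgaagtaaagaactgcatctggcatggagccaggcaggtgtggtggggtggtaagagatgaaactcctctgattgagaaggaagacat
KDM4B, promoter, chr19:4968858-4969068: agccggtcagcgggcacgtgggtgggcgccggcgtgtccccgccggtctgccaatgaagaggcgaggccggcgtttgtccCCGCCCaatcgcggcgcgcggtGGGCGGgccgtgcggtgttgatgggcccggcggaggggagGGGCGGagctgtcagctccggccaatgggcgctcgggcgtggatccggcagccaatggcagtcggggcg
The promoter stretches of KMT2B and KDM4B had a GC content of 82.7% and 75.8% with 30 CpG dinucleotides each, and each held 3 SP/KLF matches, which share bases in KMT2B. The stretches of KDM3A, KDM4C, KDM3B and EED were between 41.2% and 50.2% GC, with 0 to 3 CpG dinucleotides.

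FOXK2 peaks were found at 29 of the 39 members in at least 1 replicate (74.4%, 95% Wilson interval 58.9% to 85.4%), against 54.4% of all protein-coding genes. In replicate 1, 23 members had a peak (59.0%, 95% Wilson interval 43.4% to 72.9%), where 31.3% of all protein-coding genes did. In replicate 2, 28 members had a peak (71.8%, 56.2% to 83.5%), against 51.7% of all protein-coding genes. A peak in both replicates was present at 22 members (56.4%, 41.0% to 70.7%), against 28.6%. Peaks that overlapped between replicates by at least 1 base were present at 19 members (48.7%, 33.9% to 63.8%), against 25.5%, and overlapping peaks of the promoter class, the annotation's label for sites around a TSS, at 7 members (17.9%, 8.98% to 32.7%), against 9.03%. Each share of members thus lay above that of all genes, and the interval for promoter peaks reached down to the background. The intervals cover counting error only, and no test was made of these differences.

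The median member was longer than the median gene, and the part of length in these counts was examined only within a range of spans. The median member spanned 68646 bases in RefSeq, against 24115 bases for all protein-coding genes. Among the 4787 protein-coding genes that spanned 43814 to 143612 bases, the middle range of the members, 37.5% had a peak in both replicates and 33.4% had overlapping peaks. Of the 19 members in the same range, 13 had a peak in both replicates (68.4%) and 11 had overlapping peaks (57.9%). The 10 members without a peak had a median span of 66328 bases, and EHMT2 among them spanned 17940 bases. In a count that set aside the deposited gene names, chosen after the values were seen, 15 members (38.5%, 24.9% to 54.1%) had a peak centre within 1000 bases of one of their GENCODE starts in both replicates, against 15.8% of all protein-coding genes.

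**Figure D1:**
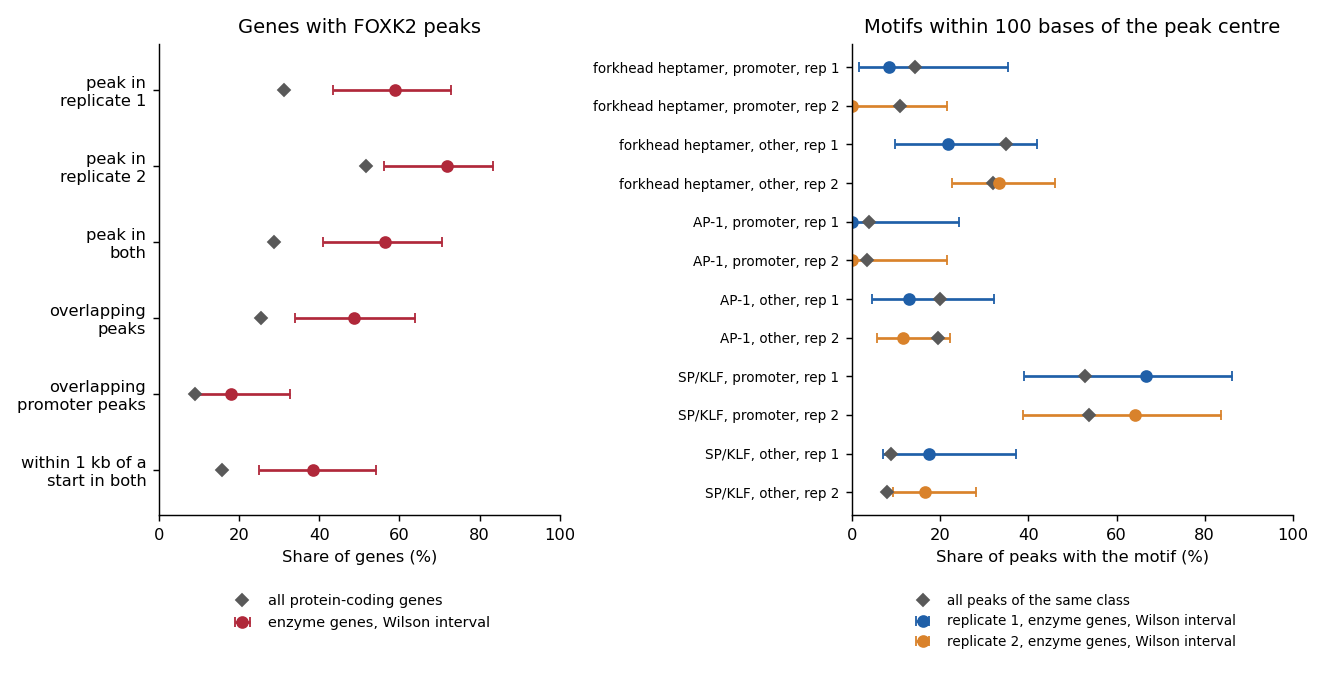
Shares of genes with FOXK2 peaks (left, percent of genes; 39 enzyme genes as red points with 95% Wilson intervals, all protein-coding genes as grey diamonds) and shares of peaks that hold a motif (right, percent of peaks; enzyme genes in blue for replicate 1 and orange for replicate 2 with 95% Wilson intervals, all peaks of the same class as grey diamonds). The share of enzyme genes lies above the diamond in each row on the left, while on the right most intervals include it.

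The H3K4 writers held some of the best-ranked promoter peaks of the group. Each list's score is the number of reads at a peak scaled to the library, so it was ranked within its own list, tied scores sharing a mean rank, and the score percentile is the percent of peaks in the list that rank below. KMT2A (MLL1), which methylates H3K4 at developmental promoters, had 1 peak per replicate, centred 118 and 98 bases upstream of its TSS, with a score of 12.5 at rank 1029.5 in replicate 1 (percentile 91.7) and of 18.6 at rank 1934.5 in replicate 2 (percentile 92.9). Both peaks also lay in the body of the GENCODE gene ENSG00000285827, and assignment by gene body did not give them to KMT2A. Its paralog KMT2B had overlapping promoter peaks 169 and 114 bases upstream, with a score of 9.62 at rank 2074 in replicate 1 (percentile 83.4) and of 15.9 at rank 2886 in replicate 2 (percentile 89.4). A weaker KMT2B peak 841 bases upstream, with a score of 4.34, was listed in replicate 1 only. SETD1A, a catalytic subunit of the complex that places most H3K4 trimethylation, had peaks 761 and 607 bases downstream of its TSS that overlapped by 80 bases, with scores of 7.17 and 9.67 at ranks 4224 and 8478.5 (percentiles 66.1 and 68.9).

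The remaining H3K4 writers had peaks that ranked below these pairs, or none. KMT2E (MLL5), which reads methylated H3K4 and has no established methyltransferase activity, had overlapping peaks in intron 14, 83647 and 83615 bases from its TSS, with scores of 3.77 and 5.35 (percentiles 3.9 and 26.7). SETD7, which methylates H3K4 and other proteins, had an intron peak of score 3.77 in replicate 1 (percentile 3.9) and peaks of scores 8.18, at the promoter (percentile 58.3), and 6.25 in replicate 2 (percentile 38.5), none of them overlapping. KMT2D (MLL4), a writer at enhancers, had only a replicate 2 peak of score 6.39, given as 5551 bases upstream but 81 bases from another annotated start of the gene. KMT2C, its paralog at enhancers, and SETD1B, the paralog of SETD1A, had no peak in either list. In all, 5 of the 8 genes grouped as H3K4 writers had a peak in both replicates (62.5%, against 28.6% of all protein-coding genes) and 4 had overlapping peaks (50%, against 25.5%). KMT2E is included in both counts.

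Of the 6 members that methylate H3K9, 1 had overlapping peaks under the deposited gene names, where 25.5% of all protein-coding genes did. That member was PRDM2 (RIZ1), with promoter peaks 156 and 104 bases upstream of the TSS and scores of 5.09 and 9.96 (percentiles 34.8 and 70.8). Replicate 2 also listed weak PRDM2 peaks 58003 bases downstream and 290762 bases downstream, both with the forkhead heptamer. SUV39H2, which trimethylates H3K9 in constitutive heterochromatin, had a promoter peak 7 bases from its TSS in replicate 2 only, with a score of 6.54 (percentile 41.9). EHMT1 (GLP), which with EHMT2 (G9a) places mono- and dimethylation on H3K9, had 3 intron peaks in replicate 2 only, with scores from 4.61 to 7.58. EHMT2, SETDB1, which silences retroelements, and SETDB2 were assigned no peak in either replicate.

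EZH1, 1 of the 2 alternative catalytic subunits of PRC2, had the strongest FOXK2 peaks of all members. Its peak, chr17:42744879-42745089 in replicate 1, was centred 112 bases downstream of the TSS in replicate 1 and 106 bases in replicate 2, inside a CpG island, and the deposited class was intron. The score was 38.3 at rank 42 in replicate 1 (percentile 99.7) and 73.2 at rank 45 in replicate 2 (percentile 99.8). If the scores carry the default scaling of HOMER, this amounts to 203 and 492 reads, where the weakest peak of each list held 16 and 21. It was also the strongest member site with the forkhead heptamer, shown first among the sequences above. EZH2, the other catalytic subunit and the one that predominates in proliferating cells, had a single weak peak per replicate and these lay apart. The replicate 1 peak was in an intron 27068 bases from the TSS with a score of 3.77 (percentile 3.9), and the replicate 2 peak was in exon 13, 68565 bases from the TSS, with a score of 6.54 (percentile 41.9) and a forkhead heptamer.

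EED, the PRC2 subunit that binds trimethylated H3K27, had 4 overlapping pairs of peaks, more than any other member. The best pair lay 220 and 294 bases downstream of the TSS, in the 5′ untranslated region by the deposited class, with a score of 7.17 at rank 4224 in replicate 1 (percentile 66.1) and of 16.4 at rank 2721 in replicate 2 (percentile 90.03). The other pairs lay in an upstream intergenic stretch. At 61124 and 61095 bases upstream the scores were 7.36 and 14.1 (percentiles 68.0 and 86.0), with the AP-1 site shown above, at 64483 and 64513 bases they were 5.66 and 8.92, and at 50719 and 50800 bases they were 4.34 and 6.84. No overlapping EED peak held the forkhead heptamer. SUZ12, the scaffold subunit, had overlapping intron peaks 1472 and 1333 bases downstream of its TSS, with scores of 5.28 and 9.52 (percentiles 38.9 and 68.0). All 4 genes of the PRC2 core thus had a peak in both replicates, where 28.6% of all protein-coding genes did, and EED, EZH1 and SUZ12 had overlapping peaks, where 25.5% did.

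DOT1L, the only known H3K79 methyltransferase, had the next best pair after EZH1. Its promoter peaks lay 299 and 305 bases upstream of the TSS, with a score of 16.2 at rank 490 in replicate 1 (percentile 96.1) and of 28.0 at rank 653 in replicate 2 (percentile 97.6). A weaker intron peak 4942 bases downstream, with a score of 8.33 (percentile 59.5), was listed in replicate 2 only. The promoter peaks lay within the gene body of AP3D1, so the deposited name is not the only gene they touch. ASH1L, which dimethylates H3K36, had promoter peaks 592 and 578 bases upstream of the listed TSS, with a score of 8.87 at rank 2584.5 in replicate 1 (percentile 79.3) and of 11.3 at rank 6208 in replicate 2 (percentile 77.2). A start of MSTO1 also lay within 1000 bases. SMYD2, which methylates H3K36 and proteins other than histones, had overlapping peaks 123555 and 123522 bases away with scores of 6.79 and 9.96, inside an intron of PTPN14, and its own start carried a peak of score 7.14 in replicate 2 only.

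The remaining writers of this group lacked overlapping peaks. SETD2, which trimethylates H3K36 in gene bodies, was the only member with a peak in replicate 1 alone, a promoter peak 193 bases upstream with a score of 4.53 (percentile 21.9). NSD1, which dimethylates H3K36, had a replicate 1 peak of score 3.58 at 19799 bases downstream and a replicate 2 peak of score 8.48 at 19088 bases upstream. SMYD3 had 5 peaks in intron 5, with scores from 3.42 to 8.33, all in replicate 2. Across the 24 writers, 14 had a peak in both replicates (58.3%, against 28.6% of all protein-coding genes), 11 had overlapping peaks (45.8%, against 25.5%) and 5 had none in either list.

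**Figure D2:**
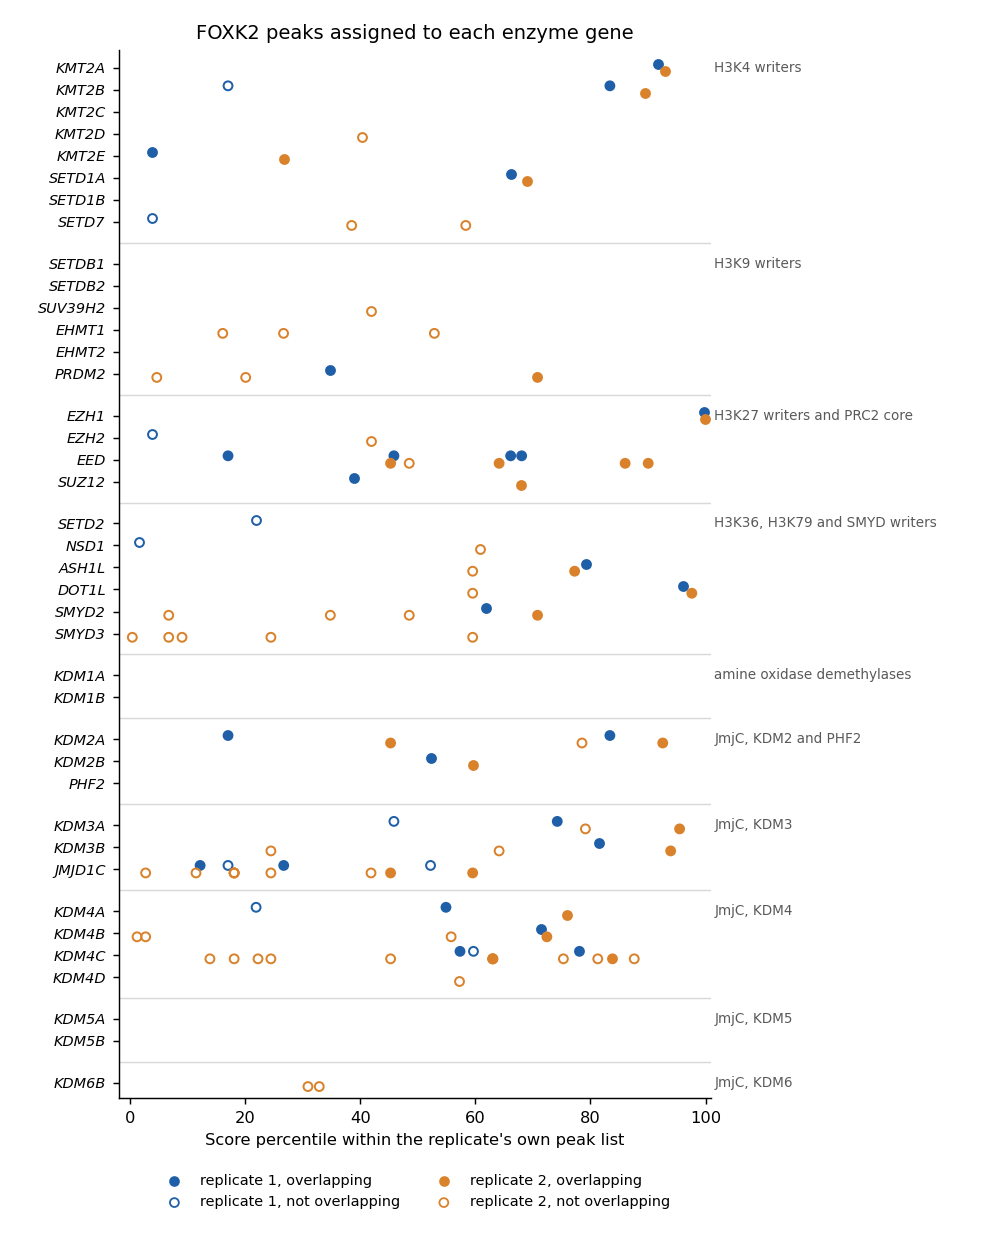
Score percentile of every FOXK2 peak assigned to the 39 enzyme genes, one row per gene and grouped by role (x axis: percent of the replicate's own list ranking below; blue, replicate 1; orange, replicate 2; filled, overlapping a peak of the other replicate). The best peaks of EZH1, DOT1L and KMT2A lie above 90 in both replicates, and 10 rows are empty.

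Among the erasers, the JmjC families KDM2, KDM3 and KDM4 held all overlapping peaks. KDM2A, which binds unmethylated CpG islands and demethylates H3K36, had a promoter pair centred 36 bases downstream and 26 bases upstream of the TSS, with a score of 9.62 at rank 2074 in replicate 1 (percentile 83.4) and of 18.3 at rank 2031 in replicate 2 (percentile 92.6). An intron pair at 26427 and 26516 bases had scores of 4.34 and 6.84. Its relative KDM2B had a pair 86 and 114 bases downstream with the forkhead heptamer, classed as promoter in replicate 1 and as 5′ untranslated region in replicate 2, with scores of 6.04 and 8.33 (percentiles 52.2 and 59.5). PHF2, an H3K9 demethylase grouped with them, had no peak, and the nearest peak lay 123052 bases from its starts in replicate 1 and 112012 bases in replicate 2.

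All 3 members of the KDM3 family, which removes mono- and dimethylation from H3K9, had overlapping peaks outside promoters, where 25.5% of all protein-coding genes had overlapping peaks of any class. KDM3B had its pair in the first intron, 2583 and 2514 bases from the TSS, with a score of 9.24 at rank 2304 in replicate 1 (percentile 81.5) and of 19.6 at rank 1656 in replicate 2 (percentile 93.9). KDM3A, a hypoxia-inducible member of the family, had a pair 47308 and 47310 bases upstream in an ERVL repeat, with both a forkhead heptamer and an AP-1 site, and its score was 8.11 at rank 3214.5 in replicate 1 (percentile 74.2) and 21.9 at rank 1233 in replicate 2 (percentile 95.5). The promoter peaks of KDM3A, centred 149 bases downstream in replicate 1 and 87 bases upstream in replicate 2, did not overlap, and had scores of 5.66 and 11.7. JMJD1C had 4 peaks in replicate 1 and 9 in replicate 2, of which 2 pairs overlapped. The pair at 32114 and 32155 bases upstream lay in an intron of REEP3, had scores of 4.72 and 6.84 (percentiles 26.7 and 45.3) and held the forkhead heptamer and an AP-1 site. The pair at 190294 and 190276 bases upstream had scores of 4.15 and 8.33.

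The KDM4 family, which demethylates H3K9 and, in most members, H3K36, had overlapping peaks at 3 of 4 members, against 25.5% of all protein-coding genes. Over both lists KDM4C held the most peaks of any member, 3 in replicate 1 and 12 in replicate 2. In replicate 1 alone EED and JMJD1C had more, with 4 each. The KDM4C peaks were spread from 17854 bases upstream of one start to 459340 bases downstream. Its best pair lay in an intron at 88795 and 88773 bases, with a score of 8.68 at rank 2733.5 in replicate 1 (percentile 78.1) and of 13.2 at rank 4413.5 in replicate 2 (percentile 83.8). A second pair at 459340 and 459329 bases, in a LINE repeat beyond the gene, had scores of 6.41 and 8.77 and held the forkhead heptamer. The replicate 2 promoter peak of score 14.9 (percentile 87.6), 254 bases upstream of the TSS, did not overlap the replicate 1 peak of score 6.60, which lay 349 bases downstream in a noncoding exon. KDM4B had a promoter pair 150 and 170 bases upstream with scores of 7.73 and 10.3, at ranks 3569.5 and 7524 (percentiles 71.4 and 72.4). KDM4A had a pair 347 and 331 bases downstream with scores of 6.23 and 11 (percentiles 54.9 and 76.0), and KDM4D had only a replicate 2 promoter peak, 25 bases from its TSS, with a score of 8.03.

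The other erasers had no overlapping peaks under the deposited gene names. KDM6B, which demethylates H3K27, had 2 peaks in replicate 2 with scores of 5.65 and 5.80. The amine oxidases KDM1A (LSD1) and KDM1B (LSD2), which act on mono- and dimethylated H3K4, had none. The nearest peak lay 100116 bases from the starts of KDM1A in replicate 1 and 15346 bases in replicate 2, and for KDM1B these distances were 109386 and 32515 bases. KDM5A and KDM5B, which remove H3K4 trimethylation, were also assigned none. Of the 15 erasers, 8 had a peak in both replicates (53.3%, against 28.6% of all protein-coding genes), the same number had overlapping peaks (against 25.5%), and 5 had none.

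The absence of a peak partly depended on which neighbour the list named. At KDM5B, chosen after its values were seen, the lists placed a promoter peak of the noncoding gene PCAT6, 2278 and 2321 bases from the KDM5B start, with a score of 25.1 at rank 149.5 in replicate 1 (percentile 98.8) and of 45.4 at rank 197.5 in replicate 2 (percentile 99.3), and the forkhead heptamer in both. At SETDB2, a pair of peaks named for CAB39L lay 164 and 110 bases from the SETDB2 start, with scores of 7.73 and 14.3 (percentiles 71.4 and 86.4). At KDM5A, a replicate 2 peak named for CCDC77 lay 3 bases from the KDM5A start, with a score of 21.9 (percentile 95.5) and no partner in replicate 1. Within KDM6B, an overlapping pair named for TMEM88 lay in exon 18, with scores of 6.04 and 10.4 (percentiles 52.2 and 73.2). The nearest gene is a label, and a peak beside more than 1 start cannot be assigned to either gene from these files. In the reverse direction, 12 of the 109 member peaks lay in the body of another protein-coding gene, 63 lay in the body of the named gene and 34 in no protein-coding gene.

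Peaks at the members were similar in strength to the rest of each list. The median score percentile of member peaks was 52.2 in replicate 1 and 50.7 in replicate 2, where the medians of the full lists were 49.1 and 49.98, and 3 of 35 and 7 of 74 were among the highest-scoring 10%. Of the member peaks, 25 of 35 in replicate 1 (71.4%, 54.9% to 83.7%) overlapped a replicate 2 peak, against 74.9% of all replicate 1 peaks, and 25 of 74 in replicate 2 (33.8%, 24.05% to 45.1%) overlapped a replicate 1 peak, against 34.2% of all. The 25 pairs lay at 19 genes, with centres a median of 30 bases apart, against 29 bases for all 9343 pairs. Their score percentiles in the 2 replicates had a Spearman's rho of 0.912, against 0.852 for all pairs, given as a description across peaks of the same libraries. In 23 of the 25 pairs both replicates had the same annotation class, SETD1A and KDM2B being the exceptions, against 9178 of all 9343 pairs.

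**Figure D3:**
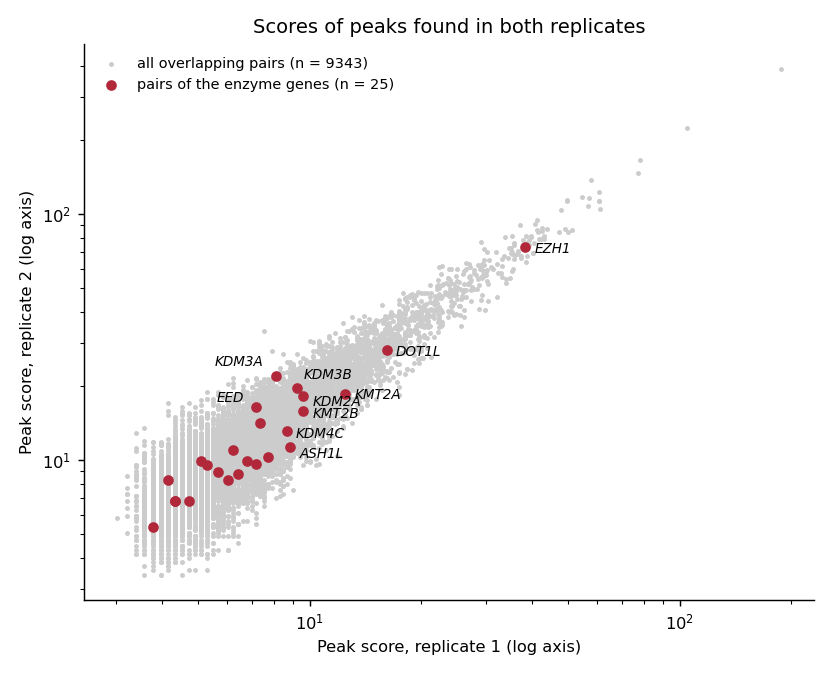
Peak scores in replicate 1 (x) and replicate 2 (y), both on log axes, for overlapping pairs of peaks: grey, all 9343 pairs; red, the 25 pairs at the enzyme genes, with the 10 best-ranked genes named at their best pair. EZH1 and DOT1L stand above the other enzyme genes in both replicates, and the red points lie within the grey cloud.

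Member peaks near a TSS ranked higher than those further away. Of the 35 replicate 1 peaks, 12 were of the promoter class (34.3%, 20.8% to 50.8%), against 21.7% of all replicate 1 peaks, and in replicate 2 it was 14 of 74 (18.9%, 11.6% to 29.3%), against 18% of all. Within 1000 bases of the TSS lay 17 member peaks in replicate 1 (48.6%) and 20 in replicate 2 (27.03%), against 26.6% and 21.99% of all peaks. These had a median percentile of 66.1 and 76.6, against 32.8 and 39.4 for member peaks further away. In the full lists the corresponding medians were 57.3 and 63.0 near the TSS and 45.8 and 45.3 further away. Of the replicate 2 member peaks near the TSS, 12 of 20 overlapped a replicate 1 peak (60.0%), as did 13 of the 54 further away (24.1%), against 43.2% and 31.7% in the full list. Replicate 1 did not show this difference. There 12 of 17 member peaks near the TSS (70.6%) and 13 of 18 further away (72.2%) overlapped a replicate 2 peak, against 78.1% and 73.8%. Intergenic peaks made up 22.9% and 24.3% of member peaks, against 34.1% and 36.5% of all peaks. Annotated interspersed repeats held 5 of 35 member peaks in replicate 1 (14.3%, 6.26% to 29.4%), against 18.6% of all peaks, and 11 of 74 in replicate 2 (14.9%, 8.51% to 24.7%), against 21.1%.

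**Figure D4:**
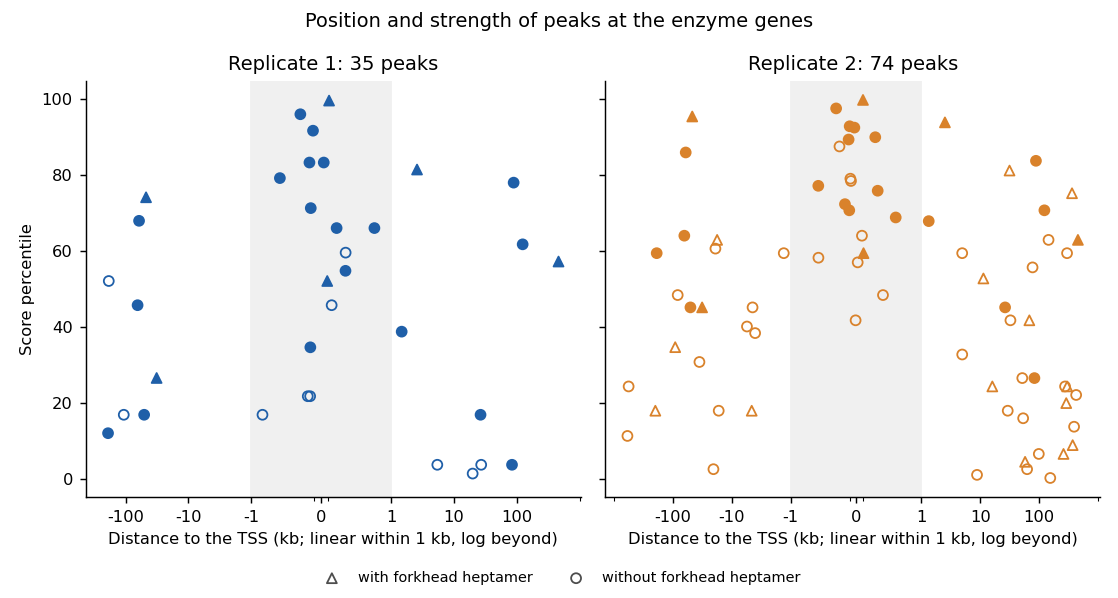
Score percentile (y) against signed distance to the TSS (x, in kb, linear within 1 kb and logarithmic beyond) of member peaks in replicate 1 (left, 35 peaks) and replicate 2 (right, 74 peaks); filled symbols overlap a peak of the other replicate, triangles hold the forkhead heptamer, and the grey band marks 1 kb to each side. In both panels the median percentile is higher inside the band, at 66.1 and 76.6.

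The forkhead heptamer had a lower share in promoter peaks of members than in their other peaks, with wide intervals and no test. It lay within 100 bases of the centre of 6 of 35 member peaks in replicate 1 (17.1%, 8.10% to 32.7%), against 30.5% of all peaks, and of 20 of 74 in replicate 2 (27.03%, 18.2% to 38.1%), against 28.2% of all. In windows of the same size 2000 bases to each side of the member peaks it was present in 2 of 70 and 3 of 148. Promoter peaks of members held it in 1 of 12 cases in replicate 1 (8.33%, 1.49% to 35.4%), that of KDM2B, and in 0 of 14 in replicate 2, a count that allows a share of up to 21.4%, where 14.4% and 10.9% of all promoter peaks held it. The other member peaks held it in 5 of 23 (21.7%, 9.66% to 41.9%) and 20 of 60 cases (33.3%, 22.7% to 45.9%), against 35.0% and 32.0% of all peaks outside promoters. The 26 peaks with the heptamer belonged to 11 genes: EZH1, EZH2, EHMT1, PRDM2, SMYD2, SMYD3, KDM2B, KDM3A, KDM3B, JMJD1C and KDM4C. Several peaks of 1 gene share a locus and both lists describe the same cells, so these peaks are not independent observations.

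Other short motifs were counted in the same windows. GGGCGG, bound by SP and KLF factors, lay near the centre of 34.3% of member peaks in replicate 1 and 25.7% in replicate 2, against 18.4% and 16.2% of all peaks, and among promoter peaks in 8 of 12 and 9 of 14, against 52.9% and 53.7%. Median GC content of member peaks was 53.2% and 47.5%, against 47.3% and 46.3%. The AP-1 site TGACTCA was in 3 of 35 and 7 of 74 member peaks (8.57% and 9.46%), against 16.4% and 16.6%. No promoter peak of a member held it, which allows up to 25% of 12 and 21.4% of 14. Of all promoter peaks, 3.88% and 3.36% held it. In the RefSeq promoter sequences, from 250 bases before to 50 bases after a start, 37 of the 39 members were matched. TGTTTAC occurred in those of EZH1 and NSD1 (5.41%, against 2.61% of 15843 promoters), and GGGCGG in 29 (78.4%, against 58.5%). A match is a description of sequence and not of binding.

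Other genes of histone modification were set beside the members. In 65 further genes for lysine methyltransferases, demethylases, arginine methyltransferases and partner subunits of these complexes, 28 had a peak in both replicates and 24 had overlapping peaks (36.9%), where 28.6% and 25.5% of all protein-coding genes did. Partner subunits of PRC2 had overlapping peaks in 4 of 7 genes, partner subunits of demethylases in 3 of 7, and partner subunits of the H3K4 methyltransferase complexes in 3 of 12. Further lysine methyltransferases had them in 8 of 20 genes, further lysine demethylases in 5 of 10, and arginine methyltransferases in 1 of 9. Among 29 histone acetyltransferases and deacetylases, 13 had overlapping peaks (44.8%). The shares in the arginine methyltransferases and in the H3K4 partner subunits did not exceed that of all genes. The best-ranked of these other genes all had promoter peaks: RBBP5, a core subunit shared by the H3K4 methyltransferase complexes, with scores of 17.9 and 31.2 (percentiles 96.9 and 98.2), the acetyltransferase KAT6A with 20.2 and 26.0, the deacetylase SIRT1 with 16.4 and 28.7, the methyltransferase SETD6 with 16.4 and 21.1, and the deacetylase HDAC7 with 14.7 and 23.1. EZH1 was the only member that ranked above all of them by the mean percentile of its pair, at 99.7 against 97.6 for RBBP5.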

How the data were processed

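According to the study's methods and the submitters' processing notes, the authors mapped single-end reads to hg38 with Bowtie2 2.2.6 and called and annotated peaks in each replicate with HOMER 4.10. Each deposited list gives a peak score (reads scaled to the library), a focus ratio (a fraction computed by the authors' software) and the nearest TSS. Scores below 10, which are rounded in the lists, lay within 0.015 of whole multiples of a step of 0.18864 in replicate 1 and 0.14872 in replicate 2. If HOMER's default total of 10000000 applies, these steps amount to 53000000 and 67200000 reads; the true depth is not given in the sources used here.

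Scores were ranked within each list, and overlap meant at least 1 shared base. Motifs were searched on both strands within 100 bases of the centre, with control windows 2000 bases to each side. Shares carry 95% Wilson intervals. A count of 0 allows 3 counts of the total. Gene spans and promoters came from RefSeq, bodies and starts from GENCODE release 44, and members were matched by symbol and Entrez identifier (39 of 39). Every member was named, and rank and position in both replicates were given for the 12 members with the best mean score percentile of overlapping peaks, KDM3A among them; printed stretches were those of the 6 best members outside untranslated regions. The members and gene lists were chosen with earlier results of these data known. Alternatives were the higher-scoring 50% of each list, equal numbers of peaks, an overlap of 50% of the shorter peak, distance limits, promoter peaks only, assignment by gene body, other motif settings and leaving out each replicate. Another alternative left out any peak that lay outside the named chromosomes. Scripts were tested on simulated data. Python 3.11.15, numpy 2.4.6, pandas 2.3.3, scipy 1.17.1, pysam 0.24.0, samtools 1.23.1 and matplotlib 3.10.9 were used.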

Additional observations from a re-analysis of the deposited data

How the results depend on the processing

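The values rest on 39 genes in 2 peak lists of 1 condition, so intervals are wide, and with no reads or input analysed signal over background was not measured. No paired analysis was possible because both replicates belong to a single condition. Of 67 alternatives to the main values, 17 moved further than a set limit and 50 did not. The limit was 1.5 times a count, or 1 SD between the 2 replicates for a share or percentile. It was loose where replicates differed: 71.4% and 33.8% of member peaks overlapped the other list. Keeping only named chromosomes changed none of these values, yet counts among the 50. Reversal was not assessed. The mean percentile of a member's best pair stayed within 1 such SD in all 124 alternatives that kept a pair. Scores were not ranked anew under any alternative. That value could change only where another pair became the best, so it says little about stability. With promoter peaks only, 8 members had a peak in both replicates and 7 had overlapping peaks, with 12 member peaks in replicate 1 and 14 in replicate 2. In the higher-scoring 50% of each list member peaks fell to 19 and 37, with equal lists replicate 2 held 36, and within 10000 bases of the TSS they numbered 20 and 30. The promoter share of all member peaks, 23.9%, was 35.7% in the higher-scoring 50% and 35.2% with equal lists. Their share with the forkhead heptamer, also 23.9%, was 40.4% for TGTTTNC, with any base at position 6. The median over members of the best peak's percentile, 69.7, was 58.6 with the median peak and 66.1 to 69.9 when a replicate was left out. The 24 further genes of histone methylation with overlapping peaks were 10 in the higher-scoring 50%, 14 with promoter peaks only, and 30 to 47 with a peak in the single list left. Of the 19 members with overlapping peaks, 14 remained within 10000 bases of the TSS, without JMJD1C, KDM3A, KDM4C, KMT2E and SMYD2. Assigning peaks by gene body, or else by the nearest protein-coding TSS, kept 16, lost DOT1L, KMT2A and SMYD2, and added KDM5B and KDM6B. Overlap could not be computed without a replicate, and the count of peaks per replicate has no such alternative. The range of gene spans, the count near GENCODE starts, the peaks near members under other names, the share within 1000 bases, the percentiles with a replicate left out and the alternatives for the further genes were chosen after seeing the data.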
